A study of Sus scrofa with 50 samples.

Results

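Histone genes were measured in RNA of ET-type and L-type Korean minipigs (Sus scrofa), sequenced as stranded mRNA libraries from backfat, loin, tenderloin, lymph and brain. The ET-type animals carry the label numbers S0235, S0242, S0276, S0309 with S0326, and the L-type animals S0349, S0355, S0377, S0384 with S0385, which makes 5 of each, and every animal gave 1 library per tissue. The labels spell out neither ET nor L and give no sex, age or treatment. Genes were counted as Swiss-Prot entries, and the level of an entry is the summed TPM (a length-normalised share of all transcripts, with the same total in every library) of the assembled transcripts whose best protein match it is. All entries named histone H1, H2A, H2B, H3 or H4, or core histone macro-H2A, were taken, without enzymes and chaperones. That gave 34 of 17566 entries, from 68 transcripts: 6 H1, 12 H2A, 9 H2B, 6 H3 and 1 H4.

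Core histones H2A, H2B, H3 and H4 form the nucleosome around which DNA is wound, and the linker histone H1 binds where DNA enters and leaves it. Most histone genes are replication-dependent: they are transcribed as DNA is copied, and their mRNAs end in a stem-loop in place of a poly(A) tail. Most variant histones, though not all, are made throughout the cell cycle, from polyadenylated mRNAs. Variants take particular places in chromatin, as H3.3 does in transcribed genes, H2A.Z at promoters, macro-H2A in silent regions and CENP-A at centromeres. By their names, 22 of the entries were replication-dependent and 12 were variants.

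Of the 50 libraries, 45 were used. The S0355 backfat and loin libraries, the S0355 and S0235 brain libraries and the S0235 lymph library were left out by the rule that defined the set. In the S0355 backfat library, 6 muscle markers summed to 67662 TPM, and in the S0355 loin library they summed to 3.22 TPM, with 12614 TPM of adipocyte markers. The S0235 lymph library had 12.7 TPM of T cell markers and 2156 TPM of the kidney tubule gene UMOD. The S0235 and S0355 brain libraries were rich in myelin and astrocyte markers, while the 8 other brain libraries held 20971 to 82994 TPM of anterior pituitary hormone transcripts and 50.5 to 128 TPM of myelin and astrocyte markers. The brain groups below are therefore libraries labelled brain that express pituitary hormones and little myelin. That left 5 ET and 4 L libraries in backfat and in loin, 5 and 5 in tenderloin, 4 and 5 in lymph and 4 and 4 in brain, each from a different animal within a group. TPM keeps no read depth, so no counting interval can be given. In bulk tissue, fewer cells of a type and less RNA per cell cannot be told apart.

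The protein names were given by sequence likeness and are less certain than those of single-copy genes. Near-identical copies of H2A, H2B and H4 can exchange reads, so a difference between 2 entries of 1 family is uncertain. Of the 39 transcripts behind replication-dependent entries, 7 held 2 histone peptides and 5 held histone peptides on both strands, and the median length after the histone match was 508 bases. Among the 29 transcripts of variant entries there was no such case, and the median length after the match was 1097 bases. An mRNA kit that selects poly(A) was used, so replication-dependent values count what such a library holds and not all of these mRNAs. An H2B entry named from a shrimp matched its protein over 35 to 45 residues only, and 90.6% of its TPM came from 1 transcript of 1899 bases, so its identity as a whole H2B gene is uncertain. The urchin H2A.V entry matched over 45 residues, and the embryonic H3 entry over 48 residues at 89.6% identity. Each of these 2 entries rests on 1 transcript with no predicted histone peptide, and 14 of the 68 transcripts had none. H1.9, H3.3C and H2A-Bbd matched their proteins at 54.9%, 65.4% and 64.9% identity.

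The transcripts carry the name of the tissue and type they were assembled from, and 23 of the 68 came from L lymph: 19 of the 39 replication-dependent and 4 of the 29 variant ones. H1.2, H1.5, H2A type 1, type 2-B and type 3, the duck H2B, the worm H3 and CENP-A rest on L lymph transcripts alone. H4, H2B type 1-K, H3.1, H2A type 1-H, the shrimp H2B entry, macro-H2A.1 and H2A.V rest on them in part.

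H3.3 alone made up 43.2% of all histone TPM over the 45 libraries, with a mean of 719 TPM. The next by mean were the shrimp H2B entry at 118 TPM, the linker histone H1.0 at 113 TPM, H2A.Z at 95.2 TPM, H2A type 2-A at 86.3 TPM, H2A.V at 86.0 TPM, H1.10 at 82.9 TPM and macro-H2A.1 at 68.9 TPM. Of these 8, all but the shrimp H2B entry and H2A type 2-A were variants. Variants took 51.0% to 92.9% of the histone TPM of a library, with medians of 84.6% in backfat, 77.5% in lymph, 76.8% in brain, 60.8% in tenderloin and 59.7% in loin. Within the H3 family, the H3.3 entry held 90.6% to 99.7% of the TPM in every library used. H1.0 and H1.10 together held 45.9% to 98.0% of the H1 TPM.

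H3.3, the replacement H3 that is laid down outside DNA replication, was at 1060 to 1336 TPM in brain (median 1233), 755 to 1415 TPM in lymph (median 1128), 507 to 948 TPM in backfat (median 632), 296 to 429 TPM in tenderloin (median 339) and 276.3 to 451 TPM in loin (median 325). Every backfat, lymph and brain library lay above every loin and tenderloin library. Its 2 transcripts had different profiles: the one of 2842 bases had means of 594 TPM in brain and 260 TPM in lymph, and the one of 1412 bases had 636 TPM in brain and 825 TPM in lymph. H3.3C, a retrogene copy of H3.3 in other mammals, had medians of 19.5 TPM in brain, 7.89 TPM in lymph, 6.97 TPM in backfat, 3.27 TPM in tenderloin and 1.58 TPM in loin, and its brain range of 9.94 to 82.7 TPM was wide.

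**Figure D1:**
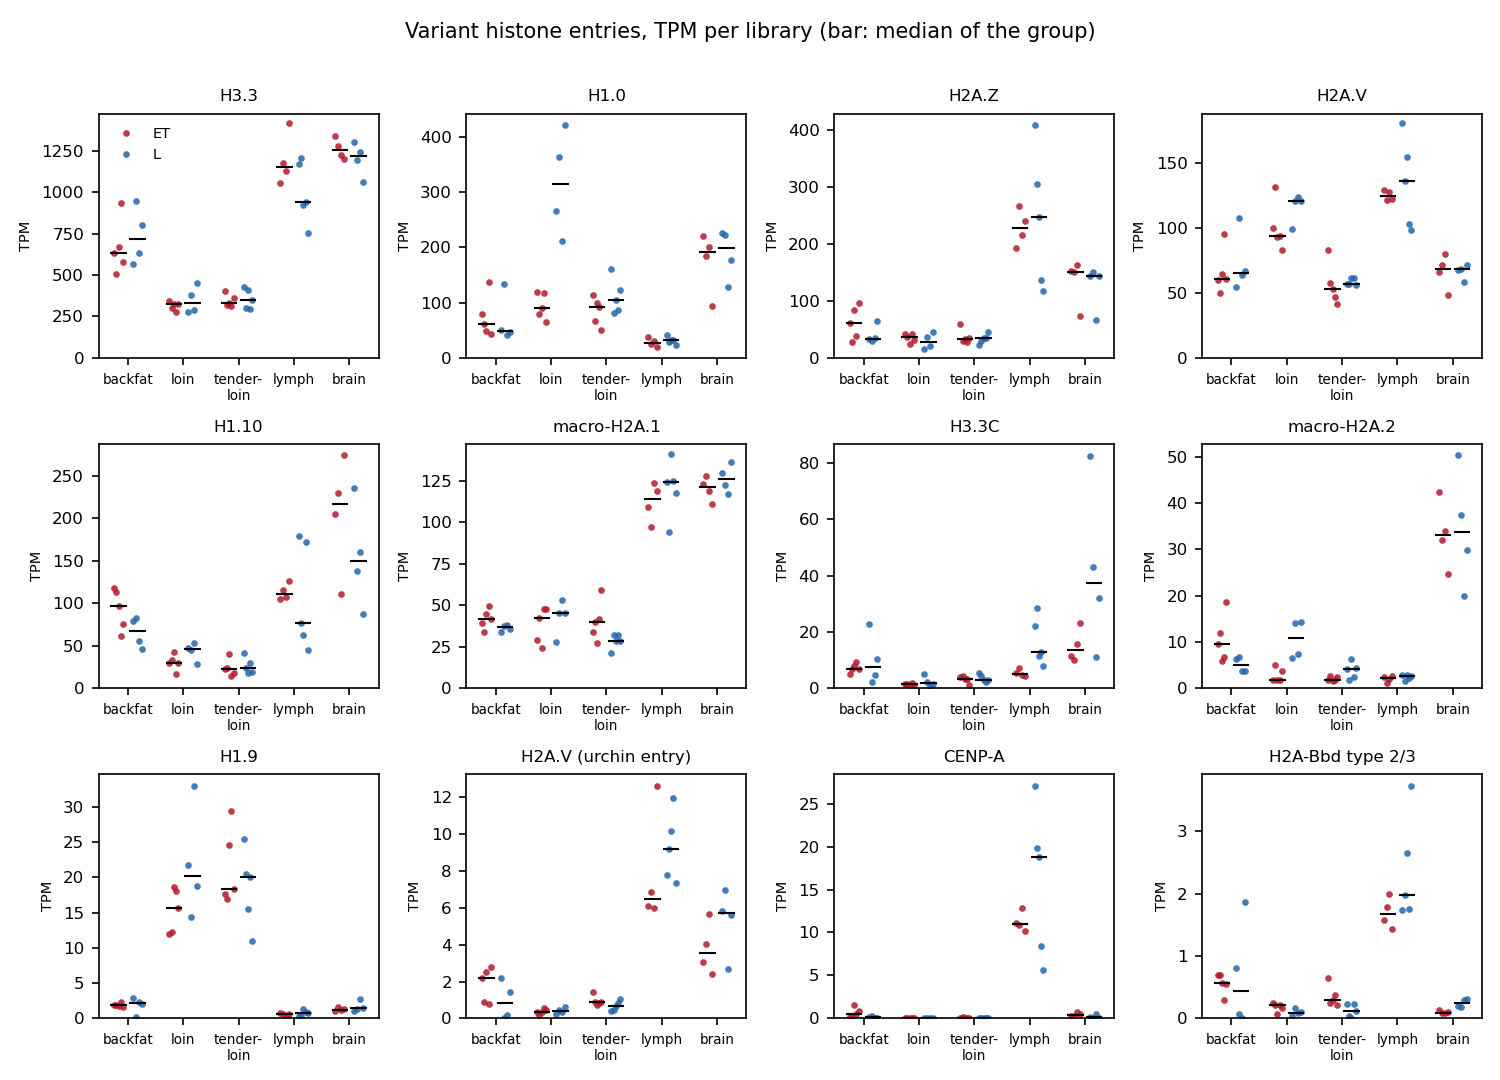
TPM of each of the 12 variant entries (vertical axes, linear, a scale for each entry) in the 45 libraries by tissue (horizontal axes), with ET in red, L in blue and a bar at the median of each group. H3.3 lies above 500 TPM in every backfat, lymph and brain library and at or below 451 TPM in every loin and tenderloin library, H1.9 is high in the 2 muscles, CENP-A in lymph and macro-H2A.2 in brain.

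The H2A variants differed in where they were high. H2A.Z, which marks promoters, was at 118 to 408 TPM in lymph (median 240) and 66.3 to 163.1 TPM in brain (median 147), against medians of 38.0 TPM in backfat, 36.2 TPM in loin and 33.8 TPM in tenderloin. Its lymph range lay above those of backfat and both muscles and overlapped that of brain, where S0326 at 74.1 TPM and S0384 at 66.3 TPM lay far below the other 6 libraries. H2A.V, a close paralogue of H2A.Z, had medians of 127 TPM in lymph, 99.9 TPM in loin, 68.2 TPM in brain, 63.4 TPM in backfat and 57.0 TPM in tenderloin. All 9 loin libraries, at 83 TPM or more, had more H2A.V than all 8 brain libraries, at 80.1 TPM or less.

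Macro-H2A.1 and macro-H2A.2, which carry a large globular domain beside the H2A fold, were both high in brain, and the first also in lymph. Macro-H2A.1 was at 111 to 136 TPM in brain (median 123) and 94.3 to 141 TPM in lymph (median 119), above every library of loin (median 45.6), backfat (median 37.9) and tenderloin (median 32.3). Macro-H2A.2 was at 19.9 to 50.3 TPM in brain (median 33.1), above all other libraries, with medians of 6.63 TPM in backfat, 4.96 TPM in loin, 2.46 TPM in lymph and 2.45 TPM in tenderloin. Lymph libraries therefore held much macro-H2A.1 beside 1.08 to 2.76 TPM of macro-H2A.2.

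The linker variants H1.0, H1.10 and H1.9 each had an order of tissues of their own. H1.0, the linker histone of resting and differentiated cells, was at 19.3 to 41.0 TPM in lymph (median 29.8), below every other library, with medians of 49.7 TPM in backfat, 95.9 TPM in tenderloin, 119 TPM in loin and 192 TPM in brain. H1.10 had medians of 182 TPM in brain, 107 TPM in lymph, 78.8 TPM in backfat, 32.5 TPM in loin and 22.6 TPM in tenderloin, with ranges that overlapped between neighbours in that order. H1.9, named for a linker-like protein of spermatids, was at 10.9 to 29.4 TPM in tenderloin and 11.9 to 33 TPM in loin, while no other library exceeded 2.89 TPM. In human the HILS1 locus for H1.9 lies within SGCA, the gene of the muscle protein alpha-sarcoglycan. SGCA was at 121 to 327 TPM in loin, 121 to 263 TPM in tenderloin, 20.8 to 115 TPM in backfat and at most 6.06 TPM in lymph and brain. Whether the H1.9 transcripts belong to SGCA was not tested.

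CENP-A, which replaces H3 at centromeres, was at 5.68 to 27.1 TPM in lymph (median 11.13), while the highest value elsewhere was 1.51 TPM, in backfat. It was listed at a median of 0 TPM in both muscles. A second H2A.V entry, named from a sea urchin, was at 5.97 to 12.6 TPM in lymph (median 7.79) and 2.39 to 6.95 TPM in brain (median 4.83), against medians of 1.46 TPM in backfat, 0.835 TPM in tenderloin and 0.351 TPM in loin.

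Replication-dependent entries as a class were low in backfat. Their sum was 87.6 to 484 TPM in backfat (median 187), 275 to 713 TPM in tenderloin (median 412), 280 to 819 TPM in loin (median 496), 258 to 974 TPM in lymph (median 512) and 497 to 717 TPM in brain (median 578). The ranges of the muscles, lymph and brain overlapped. Without the shrimp H2B entry the medians were 122 TPM in backfat, 273 TPM in tenderloin, 329 TPM in loin, 449 TPM in brain and 469 TPM in lymph.

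**Figure D2:**
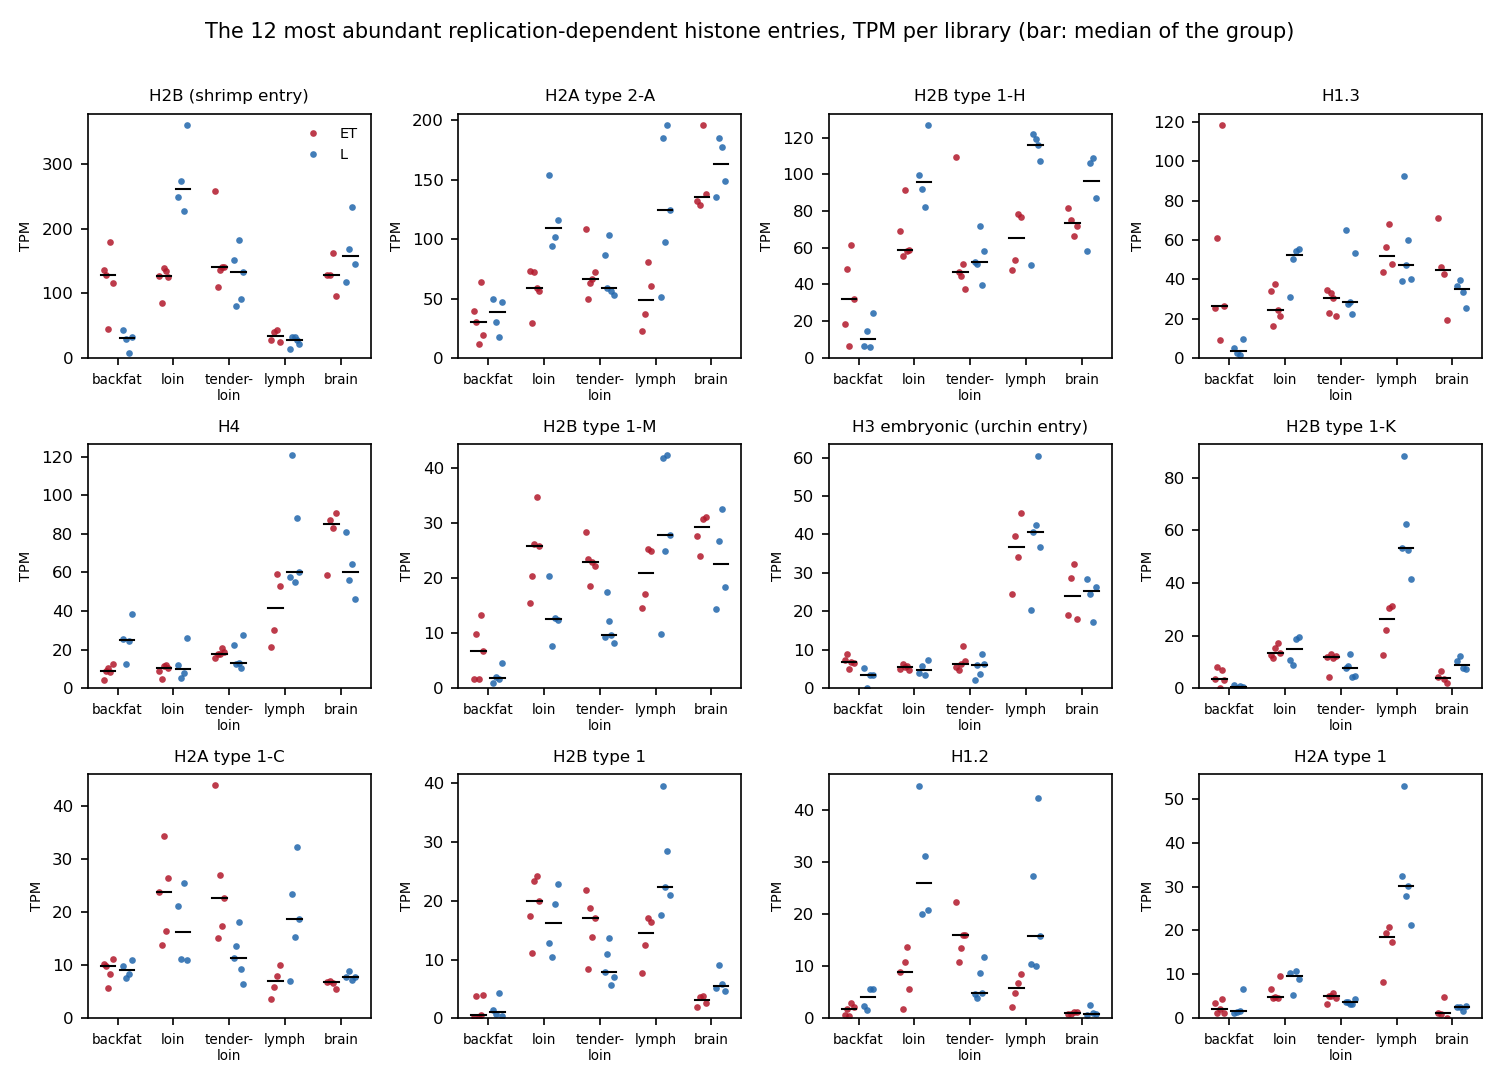
TPM of the 12 replication-dependent entries with the highest mean (vertical axes, linear, a scale for each entry) in the 45 libraries by tissue (horizontal axes), with ET in red, L in blue and a bar at the median of each group. H2B type 1-K is highest in lymph, at 12.5 to 88.4 TPM, and the shrimp H2B entry has its lowest median over both types there, at 28.2 TPM.

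The replication-dependent core histones did not share an order of tissues. Among the H2A entries, type 2-A was at 129 to 196 TPM in brain (median 144), with medians of 80.4 TPM in lymph, 73.6 TPM in loin, 65.1 TPM in tenderloin and 30.5 TPM in backfat. Type 1-H was at 5.99 to 33.7 TPM in brain (median 28.5) and 2.43 to 5.73 TPM in lymph (median 4.77), and at most 0.869 TPM in any backfat, loin or tenderloin library. Type 1-C had its highest medians in muscle, at 21.2 TPM in loin and 16.3 TPM in tenderloin, against 9.998 TPM in lymph, 9.86 TPM in backfat and 7.13 TPM in brain. H2A type 1-H and H2A type 1-C thus stood at opposite ends, with brain the highest median for the first and the lowest for the second.

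Among the H2B entries, type 1-K had medians of 41.5 TPM in lymph, 13.4 TPM in loin, 9.97 TPM in tenderloin, 6.94 TPM in brain and 1.22 TPM in backfat. Type 1-H had medians of 82.1 TPM in loin, 78.6 TPM in lymph, 78.3 TPM in brain, 51.2 TPM in tenderloin and 18.4 TPM in backfat, and type 1-M followed with 27.2 TPM in brain, 24.9 TPM in lymph, 20.4 TPM in loin, 18 TPM in tenderloin and 2.01 TPM in backfat. The shrimp H2B entry went the other way from type 1-K in lymph, with medians of 28.2 TPM there, 44.4 TPM in backfat and 137 to 139 TPM in loin, tenderloin and brain. Its 1899-base transcript had a mean of 7.12 TPM in lymph and 184 TPM in loin.

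H4, the most conserved core histone, was at 46.1 to 90.8 TPM in brain (median 72.7) and 21.4 to 121 TPM in lymph (median 57.6), against medians of 17.7 TPM in tenderloin, 12.6 TPM in backfat and 10.7 TPM in loin. The embryonic H3 entry named from a sea urchin was at 20.4 to 60.5 TPM in lymph (median 39.5) and 17.1 to 32.2 TPM in brain (median 25.4), and no backfat or muscle library exceeded 10.9 TPM. Both entries had lower medians in muscle and backfat than in lymph and brain, and the H4 ranges overlapped. The linker histone H1.3 did too, with medians of 47.5 TPM in lymph, 38.3 TPM in brain, 34.1 TPM in loin, 29.5 TPM in tenderloin and 9.80 TPM in backfat. H1.2 did not, with 13.7 TPM in loin, 11.4 TPM in tenderloin, 10.01 TPM in lymph, 2.23 TPM in backfat and 0.899 TPM in brain.

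The less abundant replication-dependent entries fell into 2 patterns by their medians. H2A type 1 (21.2 TPM), H3.1 (7.28 TPM), H2A type 3 (6.49 TPM), the H2B entry named from a duck (5.66 TPM), H2A type 2-B (3.10 TPM), the H3 entry named from a worm (2.92 TPM) and H1.5 (1.80 TPM) had their highest median in lymph. All of these but H3.1 were assembled from L lymph alone, and the part of that in their order of tissues was not tested. H2B type 1 (19.5 TPM), H2B 1/2/3/4/6 (7.11 TPM) and H2B type 2-K1 (2.28 TPM) had it in loin, and H2B type 1-B had 4.79 TPM in lymph, 4.21 TPM in tenderloin, 4.2 TPM in loin, 1.13 TPM in brain and 0 TPM in backfat. H1.5 and the H2A-Bbd variant (1.78 TPM) stayed under the filter of the tests outside lymph, with lymph ranges of 0.746 to 3.62 TPM and 1.43 to 3.73 TPM.

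A list of cell division genes was set beside the histones. Of its 35 genes 34 were matched, and they summed to 523 to 1745 TPM in lymph (median 919), 184 to 267 TPM in brain (median 223), 131 to 198 TPM in backfat (median 149), 64.5 to 108 TPM in loin (median 72.3) and 64.6 to 76.1 TPM in tenderloin (median 66.9). The ratio of the replication-dependent histone sum to the cell division sum, which does not depend on how a library is scaled, was 3.65 to 10.8 in loin (median 7.09), 4.15 to 9.37 in tenderloin (median 6.11), 2.14 to 3.31 in brain (median 2.67), 0.605 to 2.82 in backfat (median 1.22) and 0.230 to 1.41 in lymph (median 0.543). Every muscle library had a higher ratio than every other library. With the shrimp H2B entry counted, muscle thus had replication-dependent histone sums within the lymph range beside at most 108 TPM of cell division genes, against at least 523 TPM in lymph. Without that entry the lowest sums were 195 TPM in loin, 185 TPM in tenderloin and 230 TPM in lymph. Some muscle libraries then lay below every lymph library, and the ratio was not computed without the entry.

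**Figure D3:**
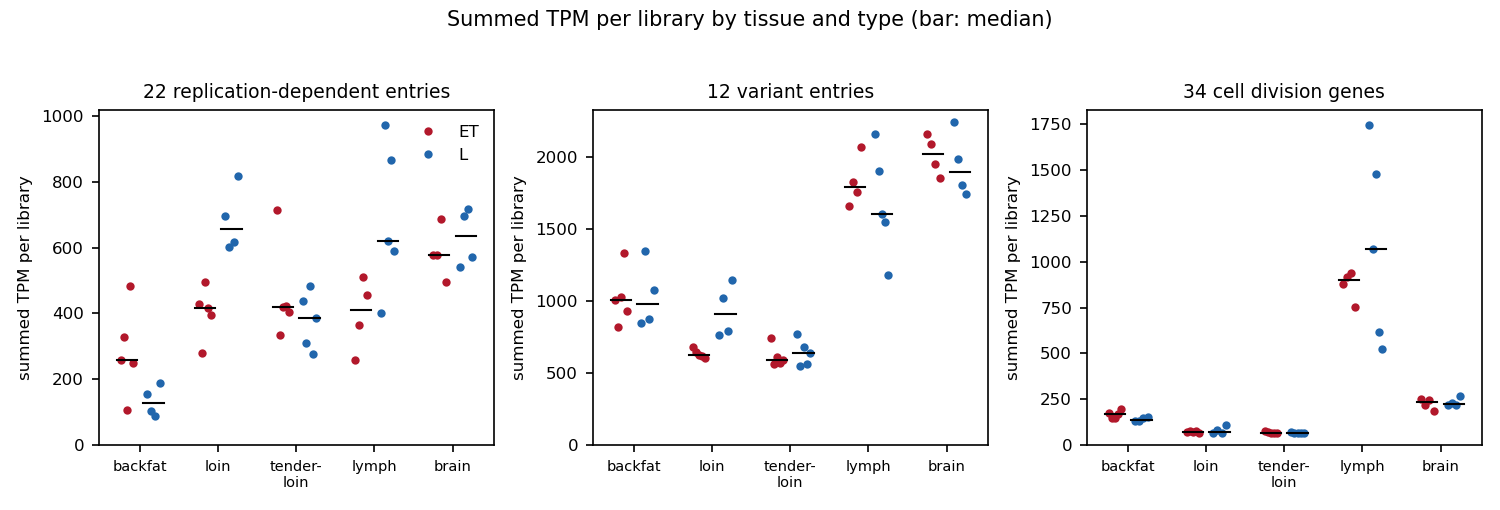
Summed TPM (vertical axes, linear from 0) of the 22 replication-dependent entries, the 12 variant entries and the 34 cell division genes in each of the 45 libraries by tissue, with ET in red, L in blue and a bar at the median of each group. The cell division sum is at least 523 TPM in every lymph library and at most 267 TPM elsewhere, while the replication-dependent sums of lymph, loin, tenderloin and brain overlap.

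Each tissue was then compared with the mean of the 4 others on log2(TPM + 1) with limma across 16049 entries, and an entry was called at an adjusted p under 0.05 and a difference of at least 1. Of the 34 histone entries 32 passed the filter of a mean of 1 TPM, the exceptions being H2A-Bbd and H1.5. The level of most entries relative to all others depended on scaling: with median-ratio scaling of the libraries, the median difference of all entries moved from 0.88 to -0.02 in brain, from -0.75 to -0.17 in loin, from -0.76 to -0.14 in tenderloin and from 0.22 to -0.08 in lymph. The share of all calls that were higher moved from 87.5% to 52.3% in brain, from 17.4% to 45.4% in loin, from 16.6% to 50.9% in tenderloin and from 59.2% to 45% in lymph. Calls are therefore given on both scales.

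In lymph, 15 histone entries were higher and 4 lower, 46.9% and 12.5% of those tested, beside 24.3% and 16.7% of all entries. With scaling the numbers were 11 and 4, beside 2750 and 3363 of all 16049 entries. The urchin H2A.V entry was higher by 2.01 (SE 0.15), H2A type 1 by 2.39 (SE 0.20) and H2A.Z by 2.15 (SE 0.19), all of which were also called with scaling. CENP-A passed the filter through lymph alone, with a mean of 13.9 TPM there against 0.413 TPM in backfat, 0.312 TPM in brain, 0.0253 TPM in tenderloin and 0.0142 TPM in loin, so its calls restate that level. H2A type 3, H2A type 2-B and the worm H3 passed it through lymph too, with lymph means of 8.94, 4.16 and 3.73 TPM. Their tissue calls restate those levels, and the 15 higher entries include them and CENP-A. Macro-H2A.1 was higher by 1.19 (SE 0.10), and by 0.80 and not called with scaling. H1.9, H1.0, the shrimp H2B entry and macro-H2A.2 were lower, by -2.14 (SE 0.15), -1.95 (SE 0.17), -1.99 (SE 0.19) and -1.50 (SE 0.17), on both scales. The median difference was 1.16 over 21 replication-dependent and 0.82 over 11 variant entries, against 0.22 over all entries. Of the 7 entries tested that rest on L lymph transcripts alone, 6 were higher, among them H2A type 3, H2A type 1 and CENP-A, beside 61.9% of all such entries. These 6 include all the entries named above that passed the filter through lymph. Of the 18 without an L lymph transcript, 4 were higher (H2A.Z, the urchin H2A.V, the embryonic H3 and H2B type 1), beside 19.7% of all such entries. The part of the assembly in these calls was not tested.

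In backfat no histone entry was higher and 15 were lower, 46.9% of those tested, beside 13.9% and 13.5% of all entries. Of the lower entries 14 were replication-dependent, and the H2B family led: H2B type 1 was lower by -2.45 (SE 0.22, adjusted p 5.38e-13), type 1-K by -2.45 (SE 0.23), type 1-M by -2.28 (SE 0.22), type 1-H by -2.02 (SE 0.21) and type 1-B by -1.93 (SE 0.22). H1.9 was the only variant called, at -1.17 (SE 0.15), though its backfat median lay above those of brain and lymph. H2A type 1-H, also among the lower entries, had a backfat median above those of both muscles. The median was -1.24 over replication-dependent and -0.57 over variant entries, against -0.13 over all entries. With scaling 16 histone entries were lower and none higher, beside 2242 lower and 2118 higher of all 16049 entries.

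In brain 11 histone entries were higher and 3 lower, 34.4% and 9.38% of those tested, beside 45.1% and 6.44% of all entries. With scaling 3 were higher and 8 lower, beside 3014 and 2750 of all 16049 entries. The direction of the class in brain therefore depends on the scaling. H2A type 1-H was higher by 3.67 (SE 0.16, adjusted p 7.71e-24; 2.90 with scaling), macro-H2A.2 by 2.78 (SE 0.17; 1.77 with scaling) and H3.3C by 2.06 (SE 0.25; 1.12 with scaling). H3.3 and macro-H2A.1 were higher by 1.19 (SE 0.10) and 1.31 (SE 0.11), but had differences of 0.11 and 0.24 with scaling and were then not called, as was H4 at 1.81 (SE 0.20) and 0.76. H1.9, H1.2 and H2A type 1 were lower on both scales, by -1.41 (SE 0.16), -2.10 (SE 0.24) and -1.42 (SE 0.20).

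The 2 muscles gave H1.9 as their clearest call. In loin, 5 histone entries were higher and 9 lower, 15.6% and 28.1% of those tested, beside 7.64% and 36.2% of all entries. With scaling 14 were higher and 4 lower, beside 2404 and 2890 of all 16049 entries. H1.9 was higher in loin by 2.29 (SE 0.15, adjusted p 2.92e-17), the shrimp H2B entry by 1.29 (SE 0.19), H1.0 by 1.16 (SE 0.17), H1.2 by 1.51 (SE 0.23) and H2B type 1 by 1.32 (SE 0.22), on both scales. H2A type 1-H at -1.83 (SE 0.15) and the urchin H2A.V entry at -1.43 (SE 0.15) were lower on both scales, while H3.3 at -1.19 (SE 0.09) and H4 at -1.55 (SE 0.19) had -0.44 and -0.85 with scaling and were then not called.

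In tenderloin 1 histone entry was higher and 8 lower, 3.12% and 25.0% of those tested, beside 6.99% and 35.1% of all entries. With scaling 7 were higher and 1 lower, beside 2173 and 2094 of all 16049 entries. H1.9 was the higher entry, by 2.43 (SE 0.14, adjusted p 1.33e-18). Of the lower entries, H2A type 1-H at -1.75 (SE 0.14) was called on both scales, and H3.3 at -1.08 (SE 0.09), macro-H2A.1 at -1.02 (SE 0.10) and H1.10 at -1.77 (SE 0.18) were not called with scaling. The median over replication-dependent entries was 0.33 in loin and -0.07 in tenderloin, against -0.75 and -0.76 over all entries, and the tenderloin median turned to 0.64 with scaling.

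Between loin and tenderloin limma called no histone entry, beside 2.11% of all entries higher in loin and 2.32% lower. At an unadjusted p under 0.05, 9 histone entries were higher and 2 lower in loin. These are 28.1% and 6.25% of those tested, beside 17.6% and 12.9% of all entries. H2A.V had the smallest p, with a difference of 0.91 (SE 0.13, adjusted p 1.62e-06) that lies under the minimum of 1, and H1.0 had 0.83 (SE 0.21).

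The SLBP gene encodes the protein that binds the stem-loop of replication-dependent histone mRNAs and is needed to process them. SLBP was at 5.35 to 12.5 TPM in loin and 6.67 to 11.8 TPM in tenderloin, against 37.8 to 67.7 TPM in backfat, 61.7 to 95.4 TPM in brain and 64.0 to 139 TPM in lymph. It was lower by -2.28 in loin and -2.15 in tenderloin and higher by 1.87 in lymph, in limma's adjusted test and on both scales (-1.58, -1.39 and 1.505 with scaling). Of the 14 processing and transcription genes tested, 4 were called in lymph, SLBP, ERI1, LSM11 and CASP8AP2, all higher, and 3 in each muscle, all lower. With scaling those counts were 2, and 1 in each muscle. In brain 5 were higher, among them NPAT, SRRT and NCBP1, and none with scaling.

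The cell division list had 30 of 32 tested genes higher in lymph on both scales, led by MKI67 at 4.92, RRM2 at 4.34, CDK1 at 4.25 and CENPF at 3.70. It had 23 lower in loin and 24 in tenderloin, or 17 and 18 with scaling. Of 29 histone chaperones and exchange factors, 15 were higher and 1 lower in lymph. ASF1B, which hands new H3 and H4 to assembly factors, was higher by 3.96, HJURP, the chaperone of CENP-A, by 2.32, and MIS18A, which licenses centromeres for it, by 2.50. In loin 8 and in tenderloin 13 chaperones were lower, and 3 higher and 2 lower in loin and 1 higher and 3 lower in tenderloin with scaling. In brain 7 chaperones were higher, and with scaling 3 were lower and none higher.

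The types were compared within each tissue with limma over the entries with a mean of 1 TPM in that tissue, called at an adjusted p under 0.05. In loin 7 of 26 histone entries were lower in ET and 1 higher, 26.9% and 3.85%, beside 22.1% and 5.26% of all entries, so the share of lower entries was near that of all entries. With scaling 4 were lower and 1 higher, beside 1414 and 1097 of all 12245 entries. The median of all entries moved from -0.22 to -0.03 with scaling, and the share of all calls that were higher in ET moved from 19.2% to 43.7%.

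H1.0 and macro-H2A.2 were among the entries lower in ET loin. H1.0 was at 119, 80.3, 91.0, 117 and 64.7 TPM in ET (S0235, S0242, S0276, S0309 and S0326) and at 266, 365, 213 and 422 TPM in L (S0349, S0377, S0384 and S0385). All L libraries lay above all ET libraries, and the difference, ET minus L, was -1.72 (SE 0.24, adjusted p 0.00236). In loin that order held for 3 of 17 replication-dependent and 2 of 9 variant entries tested, beside 19.9% of all entries with a mean of at least 1 TPM. H1.2 was at 8.95, 1.88, 10.7, 13.7 and 5.55 TPM in ET and at 44.6, 20.1, 31.2 and 20.7 TPM in L, in the same order of animals, again without overlap (-1.84, SE 0.43, adjusted p 0.0125). Macro-H2A.2 was at 1.78, 4.96, 1.83, 1.86 and 3.70 TPM in ET and at 6.58, 14.1, 7.42 and 14.4 TPM in L (-1.61, SE 0.31, adjusted p 0.0059), also without overlap. These 3 entries were called with scaling too, and macro-H2A.2 also with the left-out libraries put back, when H1.0 and H1.2 were not called.

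The other loin calls were smaller. The shrimp H2B entry was at 127, 85.3, 139, 135 and 125 TPM in ET and at 249, 274, 228 and 360 TPM in L, without overlap (-1.18, SE 0.19, adjusted p 0.00343). H2A type 2-A was at 73.6, 29.7, 72.1, 58.8 and 56.5 TPM in ET and at 154, 94.4, 102 and 117 TPM in L, without overlap (-1.03, SE 0.26, adjusted p 0.0163), and was not called with scaling. H2B type 1-M, the 1 entry higher in ET, was at 15.5, 20.4, 26.1, 34.8 and 25.8 TPM in ET and at 20.4, 7.56, 12.7 and 12.3 TPM in L, with S0349 inside the ET range (0.87, SE 0.28, adjusted p 0.0391). That call was lost under 10 of 14 alternatives, among them no filter, all 50 libraries, 1 transcript per entry and 7 of the animals left out in turn. H1.3 at -0.85 (SE 0.26) and H2B type 1-H at -0.59 (SE 0.19) completed the calls and were not called with scaling. The H1.3 call was lost under 10 of 14 alternatives. That of H2B type 1-H was lost under 8, and its difference turned to 0.13 with all 50 libraries and 0.86 with 1 transcript per entry. In loin 9 of 25 chaperones were also lower in ET, among them HIRA, which deposits H3.3, at -1.17 and NAP1L1, which carries H2A and H2B, at -0.87, and 3 with scaling. Skeletal muscle markers summed to 78333 to 117181 TPM in the ET loin libraries and 45455 to 77938 TPM in the L ones, with 1 of 6 called higher. Red cell markers summed to 28.8 to 92.0 TPM in ET and 3.10 to 12.7 TPM in L, with 2 of 2 tested called higher. Of 3 adipocyte markers tested 1 was called lower, as was the 1 anterior pituitary marker tested. The part of these markers in the histone values was not tested.

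In backfat 3 of 24 histone entries were higher in ET and 1 lower, 12.5% and 4.17%, beside 6.39% and 0.881% of all entries. With scaling 2 were higher and 1 lower, beside 423 and 208 of all 14193 entries. The median of all entries moved from 0.30 to 0.03 and the share of all calls that were higher in ET from 87.9% to 67.0%. H1.3 was at 25.2, 60.8, 9.22, 118 and 26.5 TPM in ET and at 4.82, 2.54, 1.37 and 9.80 TPM in L (2.88, SE 0.66, adjusted p 0.0272). The ET library of S0276 lay just under the L library of S0385, so the groups overlapped. The shrimp H2B entry was at 136, 129, 44.4, 180 and 116 TPM in ET and at 43.3, 28.8, 8.12 and 31.7 TPM in L, without overlap (2.15, SE 0.49, adjusted p 0.027), and was not called with scaling. The H2B 1/2/3/4/6 entry was at 3.48, 2.69, 1.82, 4.13 and 3.11 TPM in ET and at 0, 0.607, 0.344 and 0.668 TPM in L, without overlap (1.53, SE 0.28, adjusted p 0.0142). In backfat 3 of 22 replication-dependent and 1 of 12 variant entries had all ET libraries above all L libraries. Among all entries with a mean of at least 1 TPM in backfat, 11.3% did. H2B type 2-K1 and CENP-A, which are in these counts, lay under that mean, which 14 of the 22 and 10 of the 12 reached.

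H4 went the other way in backfat, at 4.45, 9.11, 10.7, 8.23 and 12.7 TPM in ET and at 25.6, 12.6, 24.5 and 38.6 TPM in L (-1.36, SE 0.36, adjusted p 0.0445). The L library of S0377 lay within the ET range. None of the 4 calls remained with the left-out libraries put back, and none without S0384. Adipocyte markers summed to 8408 to 19012 TPM in the ET backfat libraries and to 7470, 491, 7194 and 1727 TPM in the L ones, and T cell markers to 58.1 to 217 TPM and 9.30 to 52.4 TPM. Macrophage markers summed to 104.6 to 236 TPM in ET and 30.4 to 104.5 TPM in L, with 2 of 3 higher, and red cell markers to 94.96 to 647 TPM and 2.92 to 67.5 TPM, with 2 of 3 higher. B cell markers summed to 12.1 to 16.9 TPM in ET and 23.8 to 38.9 TPM in L, and the 1 of 4 that was tested was lower. The part of these markers in the histone values was not tested. Of 22 cell division genes, 3 were higher in ET backfat, UBE2C at 2.26, CCNB2 at 1.85 and RRM2 at 1.55, and all but CCNB2 were also called with scaling.

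In tenderloin 1 of 25 histone entries was called, higher in ET, 4% beside 0.774% of all entries, and none was lower, beside 0.15%. The share of all calls that were higher in ET moved from 83.8% to 73.5% with scaling. H2B type 1-M was at 28.4, 23.5, 18.5, 22.9 and 22.2 TPM in ET and at 9.31, 17.5, 12.1, 9.72 and 8.11 TPM in L (S0349, S0355, S0377, S0384, S0385), without overlap (0.998, SE 0.20, adjusted p 0.0439). The call was lost with scaling and when 1 of S0235, S0242, S0276, S0309, S0326, S0349, S0377 and S0384 was left out. In tenderloin 2 of 16 replication-dependent and 0 of 9 variant entries tested had all ET libraries above all L libraries, beside 3.45% of all entries with a mean of at least 1 TPM. H1.2 was at 22.4, 10.9, 13.5, 16.1 and 15.9 TPM in ET and at 4.70, 3.86, 8.60, 4.87 and 11.8 TPM in L (1.17, SE 0.28, adjusted p 0.0697), with S0385 above the lowest ET library, and was not called.

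In lymph limma called no histone entry, beside 0% of all entries in both directions. At an unadjusted p under 0.05, however, 14 of 22 replication-dependent entries were on the ET-lower side and none on the other, 63.6% beside 3.26% of all 14257 entries. That count was 12 to 15 under other settings and with each library left out, while the share of all entries ranged from 1.61% without S0385 to 11.2% without S0355. With 1 transcript per entry 13 were lower and 1 higher. The entries are not all separate evidence, since near-identical entries can share reads. Of the 7 replication-dependent entries assembled from L lymph alone 6 were in the count, beside 4.14% of all such entries, and of the 10 with no L lymph transcript 6 were, beside 3.08%. The part of the assembly in the count was not tested. Of 11 variants tested, H3.3C alone was in that count, and of 34 cell division genes none was, but 4 were without S0385, 2 without S0384 and 1 without S0309. The median difference was -0.92 over replication-dependent entries, -0.17 over variants, -0.17 over cell division genes and -0.10 over all entries. The cell division median was -0.42 without S0385, -0.38 without S0384, 0.03 without S0349 and -0.72 with all 50 libraries.

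The replication-dependent sum in lymph was 258, 364, 512 and 455 TPM in ET (S0242, S0276, S0309 and S0326) and 400, 974, 619, 866 and 589 TPM in L (S0349, S0355, S0377, S0384, S0385). The cell division sum of the same libraries was 881, 919, 942 and 751 TPM in ET and 1745, 1071, 1478, 615 and 523 TPM in L. The L library of S0349 had the highest cell division sum and the lowest histone sum of its group, and the libraries of S0384 and S0385 had the lowest cell division sums of the group beside histone sums above every ET library. T cell markers summed to 1468 to 2177 TPM in ET and 1008 to 1818 TPM in L, and B cell markers to 516 to 799 TPM and 453 to 1545 TPM. Their part in the histone values was not tested.

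H2B type 1-K was at 12.5, 22.2, 30.5 and 31.2 TPM in ET lymph and at 53.4, 88.4, 62.6, 52.7 and 41.5 TPM in L, without overlap (-1.31, SE 0.28, adjusted p 0.841 by limma). H2B type 1-B was at 1.87, 2.78, 2.39 and 2.94 TPM in ET and at 4.79, 12.6, 8.07, 11.7 and 5.40 TPM in L, without overlap (-1.37, SE 0.29, adjusted p 0.841 by limma). H1.2 was at 2.21, 4.92, 6.72 and 8.54 TPM in ET and at 10.4, 27.3, 10.01, 42.2 and 15.7 TPM in L (-1.65, SE 0.43, adjusted p 0.903 by limma). With H2A type 1, H2B type 1 and H1.5, these made 6 replication-dependent entries whose ET libraries all lay below all L libraries, which was so for 0.582% of all entries. Of these 6, H1.2, H2A type 1 and H1.5 were assembled from L lymph alone and H2B type 1-K in part. H3.3 was at 755 to 1206 TPM in L lymph and 1058 to 1415 TPM in ET, with a difference of 0.27 (SE 0.18) and overlapping groups.

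**Figure D4:**
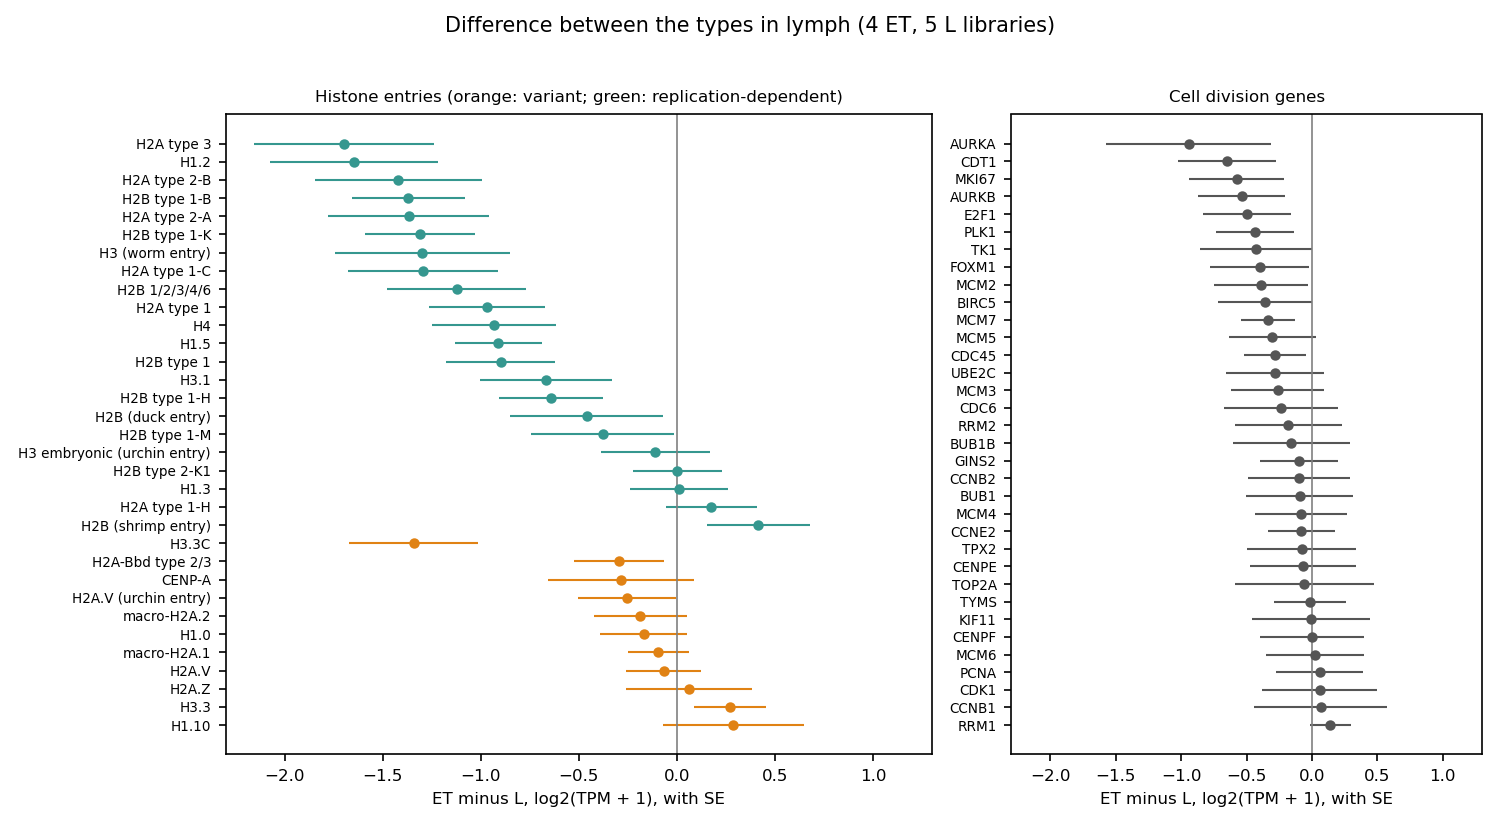
Difference between the types in lymph, ET minus L on log2(TPM + 1) (horizontal axes, bars are SE), for the 33 histone entries tested (left; green replication-dependent, orange variant) and the 34 cell division genes (right). Most green points lie left of 0, with a median of -0.92, while the cell division genes have a median of -0.17, which ranges from -0.42 to 0.03 with 1 library left out, and none of the points passed the adjusted threshold.

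In brain limma also called no histone entry, beside 0% of all entries in both directions. Of 18 replication-dependent entries 4 were on the ET-lower side at an unadjusted p under 0.05, 22.2% beside 8.55% of all entries. H2B type 1-K was at 4.09, 6.54, 3.35 and 1.77 TPM in ET (S0242, S0276, S0309 and S0326) and at 10.2, 12.4, 7.47 and 7.35 TPM in L (S0349, S0377, S0384 and S0385), without overlap (-1.13, SE 0.32, adjusted p 0.546 by limma). In brain 5 of the 18 replication-dependent entries tested had all ET libraries below all L libraries, beside 6.72% of all entries with a mean of at least 1 TPM. Anterior pituitary markers summed to 47899 to 82994 TPM in ET brain and 20971 to 52477 TPM in L. Endothelial markers summed to 33.8 to 56.2 TPM in ET and 48.7 to 72.9 TPM in L, and macrophage markers to 17.6 to 30.1 TPM and 23.9 to 81.0 TPM, with 2 of 3 of each lower at an unadjusted p under 0.05. The part of these markers in the histone values was not tested.

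Whether the type difference depended on the tissue was tested with limma's F test over 4 contrasts in all 45 libraries, with an adjusted p under 0.05. Of 32 histone entries 13 were called, 40.6% beside 19% of all entries: 11 of 21 replication-dependent entries and 2 of 11 variants, H1.0 and macro-H2A.2. The F test takes all tissues together and does not compare any pair of them. H1.2 (adjusted p 0.000664) had differences of -1.84 in loin, 1.17 in tenderloin, -1.65 in lymph, -0.89 in backfat and -0.10 in brain. The 2 muscles thus lay on opposite sides of 0, but the tenderloin difference was not called. H1.3 had 2.88 in backfat and -0.85 in loin (adjusted p 0.000192), with values between -0.35 and 0.28 in the other tissues. H2B type 1-K had 1.42 in backfat, -1.31 in lymph and -1.13 in brain (adjusted p 0.00212), beside 0.02 in loin and 0.45 in tenderloin.

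The shrimp H2B entry had the smallest p of the set (adjusted p 5.61e-05), with 2.15 in backfat and -1.18 in loin. H2A type 1-C, type 3 and type 2-B had lymph differences of -1.29, -1.70 and -1.42, and type 1-C had 1.01 in tenderloin (adjusted p 0.00276, 0.00373 and 0.0157). Macro-H2A.2 had -1.61 in loin and 0.85 in backfat (adjusted p 0.000836), and H1.0 had -1.72 in loin beside -0.40 to 0.18 elsewhere (adjusted p 0.0111). In the same test 4 of 32 cell division genes, 2 of 14 processing genes and 4 of 29 chaperones were called.

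**Figure D5:**
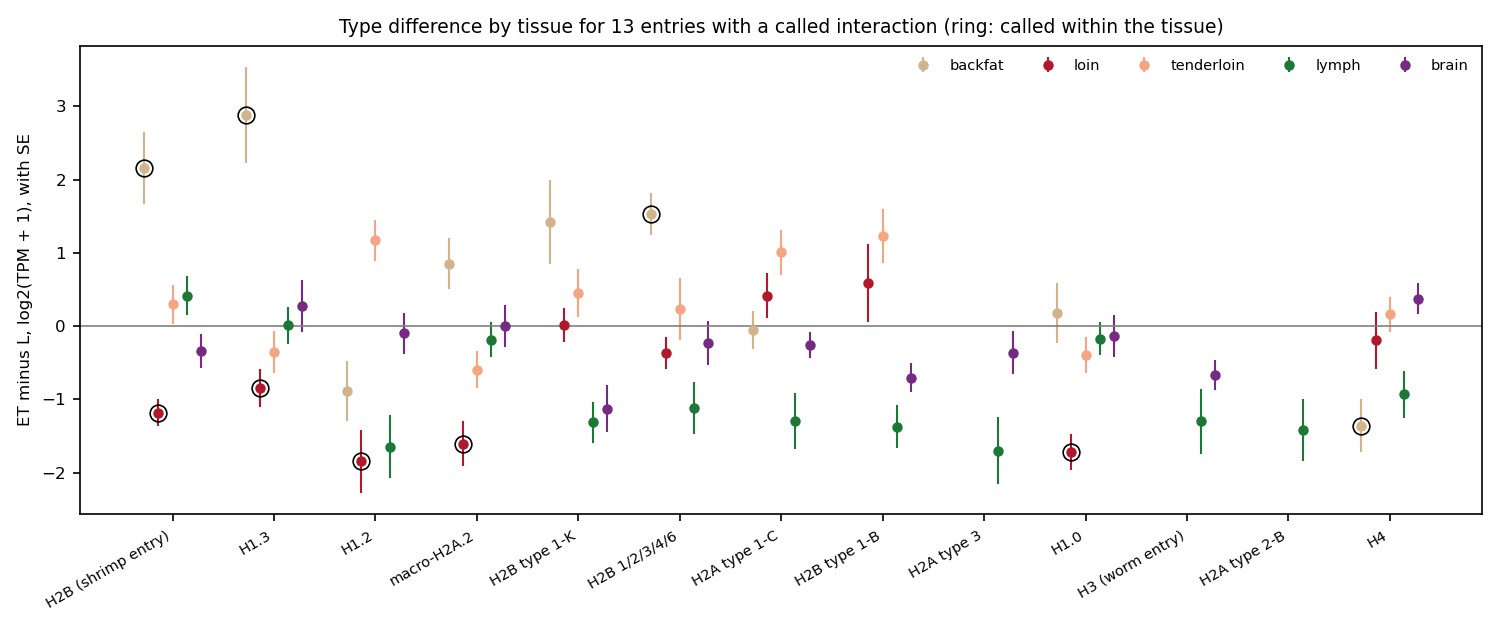
Difference between the types, ET minus L on log2(TPM + 1) with SE (vertical axis), in each tissue (colours) for the 13 histone entries whose type difference depended on tissue, with a ring where the entry was called within that tissue. Entries absent from a tissue had a mean under 1 TPM there. The shrimp H2B entry and H1.3 lie above 2 in backfat and below -0.8 in loin, and H1.2 lies above 1 in tenderloin and below -1.6 in loin and lymph.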

How the data were processed

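Total RNA of the 50 samples was taken with TRIzol and put through a TruSeq stranded mRNA kit, as the labels say. The authors deposited TPM for 57085 assembled transcripts. The submitters' processing notes name Trimmomatic 0.36 and Salmon 1.10.0, and a pig genome build whose role is not given there. Transcripts were assigned to the Swiss-Prot entry of their best match in the deposited annotation (E at most 1e-10, animal entries), and TPM was summed per entry over 32213 transcripts. Tests used limma 3.58.1 in R 4.3.3 with an intensity trend on log2(TPM + 1), two-sided, with Benjamini-Hochberg adjustment over all entries with a mean of at least 1 TPM in the fit. A difference on that scale understates the change of low entries. The code was tested on simulated data. Fits of tissues put all 45 libraries in 1 model of 10 groups. Deviations from the group means correlated between tissues of 1 animal (median r 0.241 over 84 pairs of libraries) and not between animals of 1 type (median -0.0661 over 320 pairs), so the same numbers pair the tissues, and animal was a block in an alternative.

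All 34 members were counted. Values were given for the 8 highest entries of each class, up to 5 called members per direction and comparison, entries whose type difference depended on tissue and the main variants, and at most 4 genes of each other list. The members and lists were chosen with earlier results of these data known. Alternatives were a pseudocount of 0.1, no filter, median-ratio scaling, all 50 libraries, 1 transcript per entry, entries of 1 protein name summed, each animal left out, and the block. No sequences of the members were used here.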

Additional observations from a re-analysis of the deposited data

Results flagged for a closer look

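Single libraries stood apart from the rest of their group in 14 of 180 groups of values looked at, over 18 measures; chance gives about 1 in 20. The ET tenderloin library of S0235 was the highest of its group, far from the next, for the replication-dependent sum (713 TPM), the variant sum (743 TPM), the shrimp H2B entry (258 TPM), H2B type 1-H (110 TPM) and H2A.Z (58.6 TPM). H2A.Z was also low in the brain libraries of S0326 (74.1 TPM) and S0384 (66.3 TPM) and high in the L backfat library of S0385 (64.0 TPM). The L backfat library of S0377, with the lowest adipocyte markers of its group, had the highest H1.0 (133 TPM). H2A type 2-A was highest in the ET brain library of S0309 (196 TPM). The lowest of their groups were the shrimp H2B entry in ET loin S0242 (85.3 TPM), H2B type 1-H in L lymph S0349 (50.6 TPM), H2B type 1-K in ET tenderloin S0242 (4.32 TPM) and H2A.V in L loin S0349 (99.2 TPM).

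The type difference of 13 entries depended on tissue by limma's F test. Among them, H2A type 3, H2A type 2-B and the H3 entry named from a worm passed the filter through lymph. The adjusted p was 5.61e-05 for the shrimp H2B entry, 0.000192 for H1.3, 0.000664 for H1.2, 0.000836 for macro-H2A.2, 0.00212 for H2B type 1-K, 0.00218 for H2B 1/2/3/4/6, 0.00276 for H2A type 1-C, 0.00293 for H2B type 1-B, 0.00373 for H2A type 3, 0.0111 for H1.0, 0.0113 for the H3 entry named from a worm, 0.0157 for H2A type 2-B and 0.0277 for H4. H4 was the only entry of this set called lower in ET backfat, at -1.36, beside -0.20 in loin and 0.38 in brain. In lymph its difference with scaling was -0.82 and was not called.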

How the results depend on the processing

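Of 84 calls of single histone entries, 41 were lost under no alternative in which the entry was tested. Among these 41, H2A type 2-B and the worm H3 in lymph were tested in 12 and 15 of 16 alternatives. Between the types, the count of called entries in loin fell from 8 to 5 with scaling, to 5 with 1 transcript per entry and to 1 with all 50 libraries; in backfat it fell from 4 to 0 with all 50 libraries; in tenderloin it fell from 1 to 0 without a filter, with scaling and with 1 transcript per entry. Loin against the other tissues fell from 14 to 8, and the tests of type by tissue from 13 to 7, with all 50 libraries. With a pseudocount of 0.1, tenderloin against the others rose from 9 to 14 and loin against tenderloin from 0 to 1. H2B type 1-H between the types in loin turned from -0.59 to 0.13 with all 50 libraries and to 0.86 with 1 transcript per entry, and H1.10 in loin against the others turned from -1.07 to 0.022 with 1 transcript per entry. The cause was not tested.

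With 1 animal left out at a time, the counts were 0 to 5 in backfat (0 without S0384, 1 without S0235, S0242 or S0326, 2 without S0309 or S0377), 5 to 8 in loin (5 without S0242, S0309, S0326, S0377 or S0385) and 0 to 2 in tenderloin (2 without S0385) between the types, 13 to 17 in backfat, 13 to 15 in loin, 7 to 12 in tenderloin, 17 to 21 in lymph and 14 to 15 in brain against the other tissues, 0 to 1 for loin against tenderloin (1 without S0349), and 10 to 15 for type by tissue. With the animal as a block, which pairs the tissues, these counts were 14 in backfat, 14 in loin, 9 in tenderloin, 19 in lymph, 15 in brain, 0 and 15; no pairing is possible between types, which are different animals. The alternatives for the unadjusted counts in lymph were chosen after seeing the data. Depth is unknown, so low entries such as CENP-A outside lymph cannot be told from 0.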
